A study of Mus musculus with 8 samples.

Results

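Bach2 and Bach1 are the 2 members of the BACH family among the 21887 protein-coding genes of the mouse RefSeq table, and 5-hydroxymethylcytosine (5hmC) was described along both. They were chosen by name, with the number of deposited regions of higher 5hmC in wild-type cells known for Bach2, so every KO against WT value of Bach2 is a description and carries no test. The libraries came from genomic DNA of germinal center B cells isolated from spleens of C57BL/6 mice, either TET2 knockout (KO) or TET2 wild type (WT). DNA carrying 5hmC was immunoprecipitated and sequenced (hMeDIP-seq), in 2 KO and 2 WT libraries numbered 2 and 3 in each genotype. The matching input libraries were not analysed here. The labels give no age, sex, TET2 allele, deleter strain or immunization, nor whether the 2 libraries of a genotype are from different animals. A p-value here therefore measures the spread among 4 libraries, and that spread may be technical. The 2 values of a genotype are given in the order replicate 2, replicate 3. Peak lists hold no RNA levels, so the cell type and the loss of TET2 were not checked against marker genes.

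TET2 oxidizes 5-methylcytosine to 5hmC, a step on the way to removal of DNA methylation, and 5hmC tends to lie within the bodies and enhancers of genes that are in use. Germinal center B cells are antigen-activated B cells that divide, mutate their antibody genes and switch antibody class before some of them become plasma cells. BACH2 is a bZIP repressor that binds DNA with small MAF partners. It restrains plasma cell differentiation by repressing Prdm1, the gene of the plasma cell regulator BLIMP1, and it is needed for class switching. BACH1 is its widely expressed relative, a heme-regulated repressor of Hmox1, which encodes a heme-degrading oxygenase, and of antioxidant genes.

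Both genes lie on the plus strand of GRCm38. Bach2 (gene ID 12014) spans chr4:32238413-32586109, 347697 bp, and Bach1 (gene ID 12013) spans chr16:87698954-87733346, 34393 bp. Each was read over its span plus 2 kb on either side. The sequences upstream of the RefSeq start in the promoter table are shown because CpG is the main site of TET2 action and neither stretch held a peak in any of the 4 libraries. The Bach2 entry is an internal start, while the Bach1 entry is at the start of its span, so they are not like for like. They are 250 bases each, chr4:32417185-32417434 for Bach2 and chr16:87698704-87698953 for Bach1 (RefSeq, GRCm38.p6), 5′ to 3′, with CpG in capitals.

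Bach2: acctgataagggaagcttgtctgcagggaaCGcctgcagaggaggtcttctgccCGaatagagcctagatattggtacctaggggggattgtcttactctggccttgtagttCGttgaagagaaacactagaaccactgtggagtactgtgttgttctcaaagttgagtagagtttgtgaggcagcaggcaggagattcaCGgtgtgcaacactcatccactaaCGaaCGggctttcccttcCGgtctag

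Bach1: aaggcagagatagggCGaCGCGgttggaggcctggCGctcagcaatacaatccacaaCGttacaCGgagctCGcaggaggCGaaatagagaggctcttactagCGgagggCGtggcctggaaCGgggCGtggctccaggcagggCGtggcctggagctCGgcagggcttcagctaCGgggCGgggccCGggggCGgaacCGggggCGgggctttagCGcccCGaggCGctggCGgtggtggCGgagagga

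The Bach2 stretch held 7 CpG and the Bach1 stretch 25. The GC content of the 300-base table entry, which ends 50 bases inside the gene, was 50.3% for Bach2 and 69.7% for Bach1. The RefSeq start used for the Bach2 entry lay 179 kb inside the span, at 32417435. The nearest peak regions lay 1627 bp upstream and 2280 bp downstream of the edges of the 300-base entry. For Bach1 the nearest region was 3484 bp downstream of the end of its entry. A promoter without a peak was the usual case: of 32851 RefSeq promoters of this length, 9.41% overlapped a peak in any library, 11.8% of those with 5 to 14 CpG and 6.98% of those with 15 or more.

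Bach2 carried peaks along most of its length in every library, and Bach1 carried 2 peaks per library. Within the Bach2 window there were 74 and 74 peaks in the KO libraries, against 86 and 77 in the WT libraries. They covered 46883 and 34267 bases in the KO libraries, against 54485 and 45544 bases in the WT libraries, which is 13.3% and 9.74% of the window against 15.5% and 12.9%. KO replicate 2 had more Bach2 bases under peaks than WT replicate 3, so the genotypes overlapped. Summit fold enrichment, the authors' ratio of reads at a peak's summit to the local background, had a median over Bach2 peaks of 4.18 and 3.88 in the KO libraries and 4.76 and 4.10 in the WT libraries. Peaks of at least 5-fold numbered 22 and 19 in KO, against 33 and 24 in WT. WT replicate 2 stood highest in each of these measures and KO replicate 3 lowest or tied for lowest.

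The libraries also differed as wholes. The lists held 280416 and 279548 peaks in KO, against 270548 and 300954 in WT. Over the genome they covered 137 and 110.6 Mb in KO, against 124.8 and 139.3 Mb in WT. WT replicate 2, which had the most Bach2 peaks and covered bases, thus had the shortest list, and KO replicate 3 had the smallest total coverage. The most frequent local background was 11.6 and 10.9 reads in the KO libraries and 8.66 and 11.7 reads in the WT libraries. It is only a rough guide to depth, since peak-calling settings, which are not stated, can affect it too. Median fold enrichment over the regions that all 4 libraries shared was 5.82 and 4.89 in KO, against 6.24 and 5.75 in WT. WT replicate 2 thus had the lowest background and the highest enrichment. Bach2 values without it are given below. Fold enrichment was therefore also read as a percentile rank within each list, from 0 for the weakest to 100 for the strongest of the 213431 regions with a peak in all 4 libraries.

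**Figure D1:**
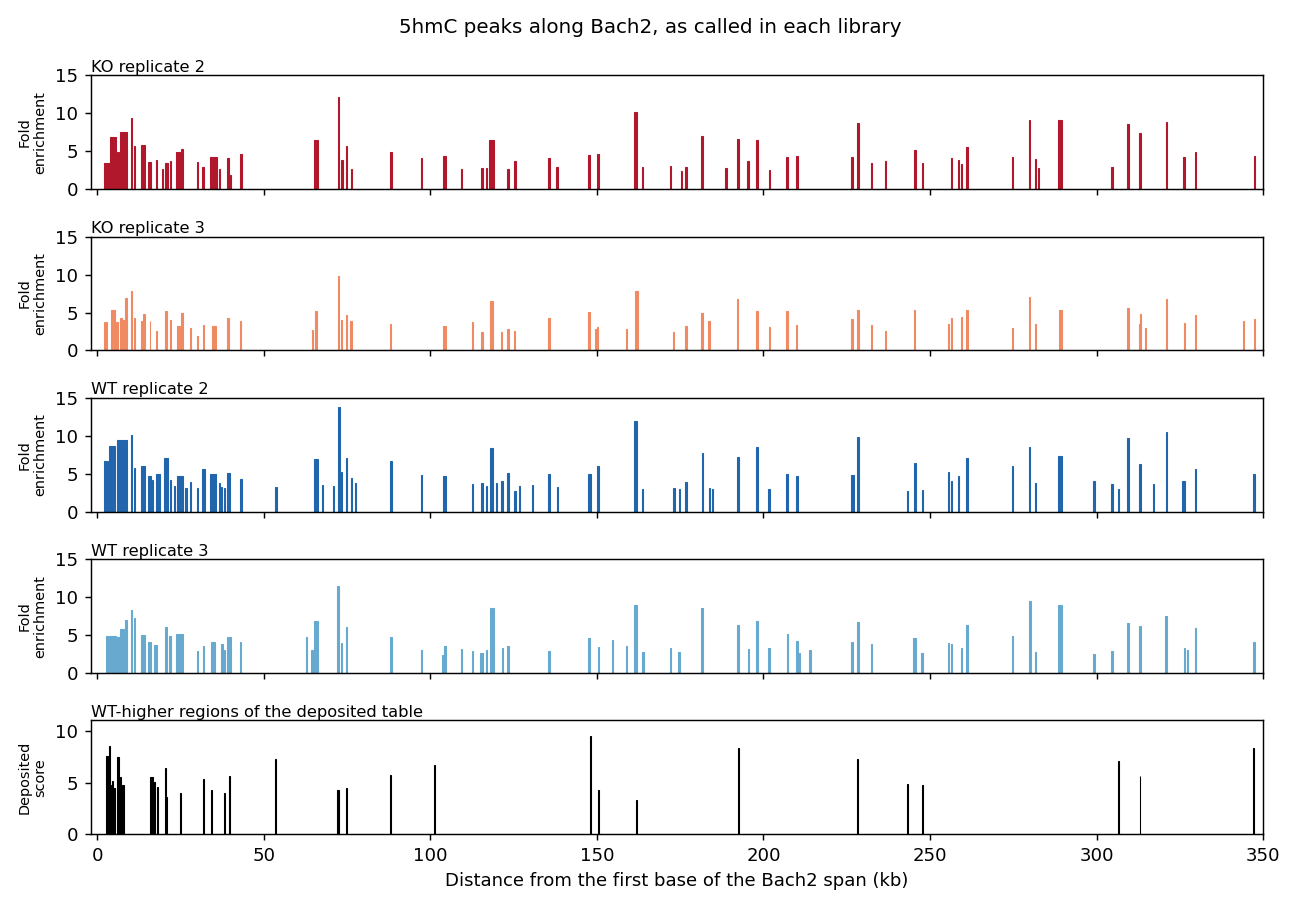
Peaks along Bach2 in each library, drawn at their positions (x axis, kb from the first base of the span) with the summit fold enrichment as height, and in the bottom panel the 33 WT-higher regions of the authors' deposited table with their score. Peaks were dense over the first 45 kb in every library, where 18 of the 33 WT-higher regions lay.

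Peaks of the 4 lists that touched were merged into 106 regions in the Bach2 window, of which 49 had a peak in every library. A peak was present in 70 and 66 of the 106 in the KO libraries, against 85 and 74 in the WT libraries. The share called in all 4 libraries, 46.2%, was below the 58.0% of regions in all protein-coding genes. The highest enrichment in every library fell on the same region, chr4:32310496-32311151, 72 kb into the span, with 12.2-fold and 9.86-fold in KO, against 13.8-fold and 11.4-fold in WT. It ranked between 97.0 and 98.9 in all 4 lists, and KO and WT ranks overlapped.

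The other strongly marked regions also had a peak in all 4 libraries. The choice by mean enrichment, KO libraries included, favours such regions, so it does not show that signal was kept. At chr4:32399411-32400711 enrichment was 10.2-fold and 7.79-fold in KO, against 12.01-fold and 8.95-fold in WT. At chr4:32248457-32248989, 10 kb into the span, it was 9.40-fold and 7.79-fold in KO, against 10.1-fold and 8.28-fold in WT, and both KO libraries ranked the region above both WT libraries (88.1 and 92.7 against 87.6 and 82.7). At chr4:32518047-32518566 enrichment was 9.16-fold and 6.99-fold in KO, against 8.49-fold and 9.54-fold in WT. Genotypes overlapped there. At chr4:32559073-32559658, beside the overlapping long noncoding gene Bach2os, it was 8.84-fold and 6.82-fold in KO, against 10.6-fold and 7.49-fold in WT. Of these 5 regions, chosen for the highest mean enrichment, 2 held a deposited WT-higher region, with the low scores 4.27 and 3.31.

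The authors' deposited table of regions enriched in KO cells (KO-higher) lists 0 within Bach2, and the table of regions enriched in WT cells (WT-higher) lists 33. The 33 WT-higher regions overlapped 25 of the 106 Bach2 regions, 23.6% (95% Wilson interval 16.5% to 32.5%, counting error only), against 7.26% of all regions in protein-coding genes. For KO-higher regions that background was 0.00806%. The 33 were 200 to 760 bp wide and together 10324 bases. Their deposited scores, on a scale that is not stated in the sources used here, were between 3.31 and 9.49 with a median of 5.33, against 4.77 over the 24645 regions of that table. The 49 shared regions were grouped by mean rank on the scale from 0 to 100 introduced above. A WT-higher region lay in 6 of 21 (28.6%) ranked up to 25, in 5 of 10 (50%) from 25 to 50, in 5 of 10 from 50 to 75 and in 3 of 8 (37.5%) above 75, against 5.12%, 5.85%, 9.26% and 19.8% of genic regions. For the strongest the 95% Wilson interval, 13.7% to 69.4%, includes the genic share, and it counts neighbouring regions as independent. No group is a test against the genic shares, since the count of WT-higher regions was known when Bach2 was chosen.

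The position of the WT-higher regions was uneven. The span was cut into 10 equal parts of about 35 kb. Part 1, chr4:32238413-32273182, held 16 of the 33. Parts 2 to 10 held 3, 4, 0, 3, 1, 2, 1, 1 and 2. Part 1 also held more merged peak regions than any other, 17, of which 8 (47.1%) contained a WT-higher region, against 17 of 88 (19.3%) over parts 2 to 10. Among the 133 genes with at least 10 WT-higher regions in their span, the median share lying in the first 10% of the gene, by strand, was 9.09%, and Bach2 had 48.5%. Of these, 1 other gene was at or above Bach2 (Pced1b, 50%, 5 of 10 regions). Bach2's merged peak regions were less uneven, with 16.2% in part 1 against a median of 10.5%. This comparison of genes was chosen after the Bach2 positions had been seen.

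**Figure D2:**
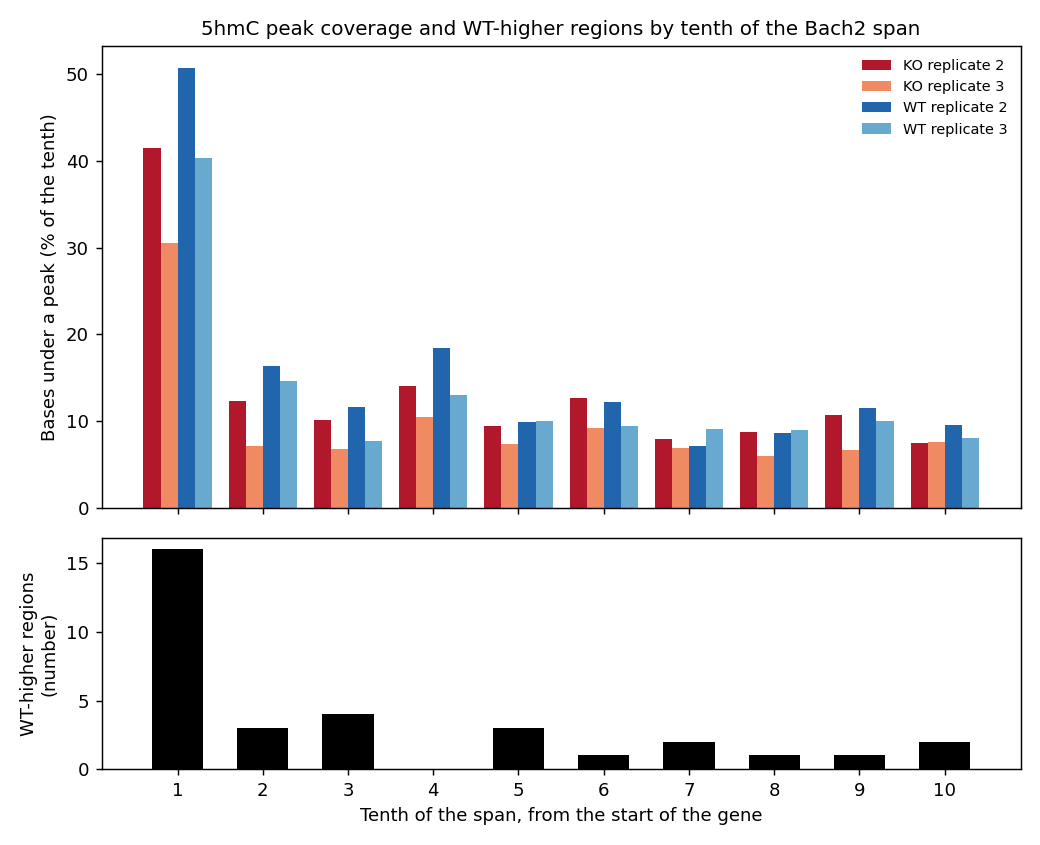
Upper panel, percent of bases under a peak in each of 10 equal parts of the Bach2 span, from the start of the gene, with 1 bar per library. Lower panel, the number of deposited WT-higher regions in each part. Part 1 was the most covered part in every library (41.5% and 30.5% in KO, 50.7% and 40.3% in WT) and held 16 of the 33 WT-higher regions.

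Part 1 kept most of its signal in KO cells. It had 41.5% and 30.5% of its bases under a peak in KO replicates 2 and 3, against 50.7% and 40.3% in WT replicates 2 and 3. It gave 30.8% and 30.9% of the Bach2 coverage in KO, against 32.4% and 30.8% in WT, so its share of the gene hardly differed between libraries. After scaling of covered bases to equal library totals it had 13466 and 12263 bases in KO, against 18074 and 12865 in WT. The KO mean was 12864 and the WT mean 15469. Of its 12 regions with a peak in all 4 libraries, 0 had both KO ranks below both WT ranks, against 15.1% of all shared regions of the genome. In 3 (25%) both were above, against 16.3%. With 12 regions these counts are too small to set part 1 apart from the genome.

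Signal within part 1 was broad close to the start of the gene. From the first peak of the span, at 32240427, 2 broad regions followed, chr4:32240427-32243935 and chr4:32244160-32247381, which held 5 and 3 WT-higher regions. In the first, KO replicate 2 had peaks of 3.43-fold and 6.85-fold. KO replicate 3 had 3 peaks, the last of 5.28-fold, and none from the end of its middle peak, at 32241470, to the start of its last, at 32242446. WT replicate 2 had peaks of 6.63-fold and 8.70-fold, and WT replicate 3 of 4.89-fold and 4.93-fold. Each of the other 3 libraries had a shorter gap between its peaks. The peaks at the upstream end of the region were lower in both KO libraries than in both WT libraries. In the second region, KO replicate 2 had 2 peaks with up to 7.57-fold enrichment and KO replicate 3 had 4 narrow ones of 3.79-fold to 6.91-fold, while WT replicate 2 had 1 peak of 3124 bp at 9.39-fold and WT replicate 3 had 3 with up to 6.94-fold. Read as ranks of the strongest summit, these 2 regions did not separate the genotypes. The ranks were 65.8 and 59.7 in KO, against 78.1 and 32.0 in WT for the first, and 74.1 and 85.9 in KO, against 83.1 and 68.6 in WT for the second.

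**Figure D3:**
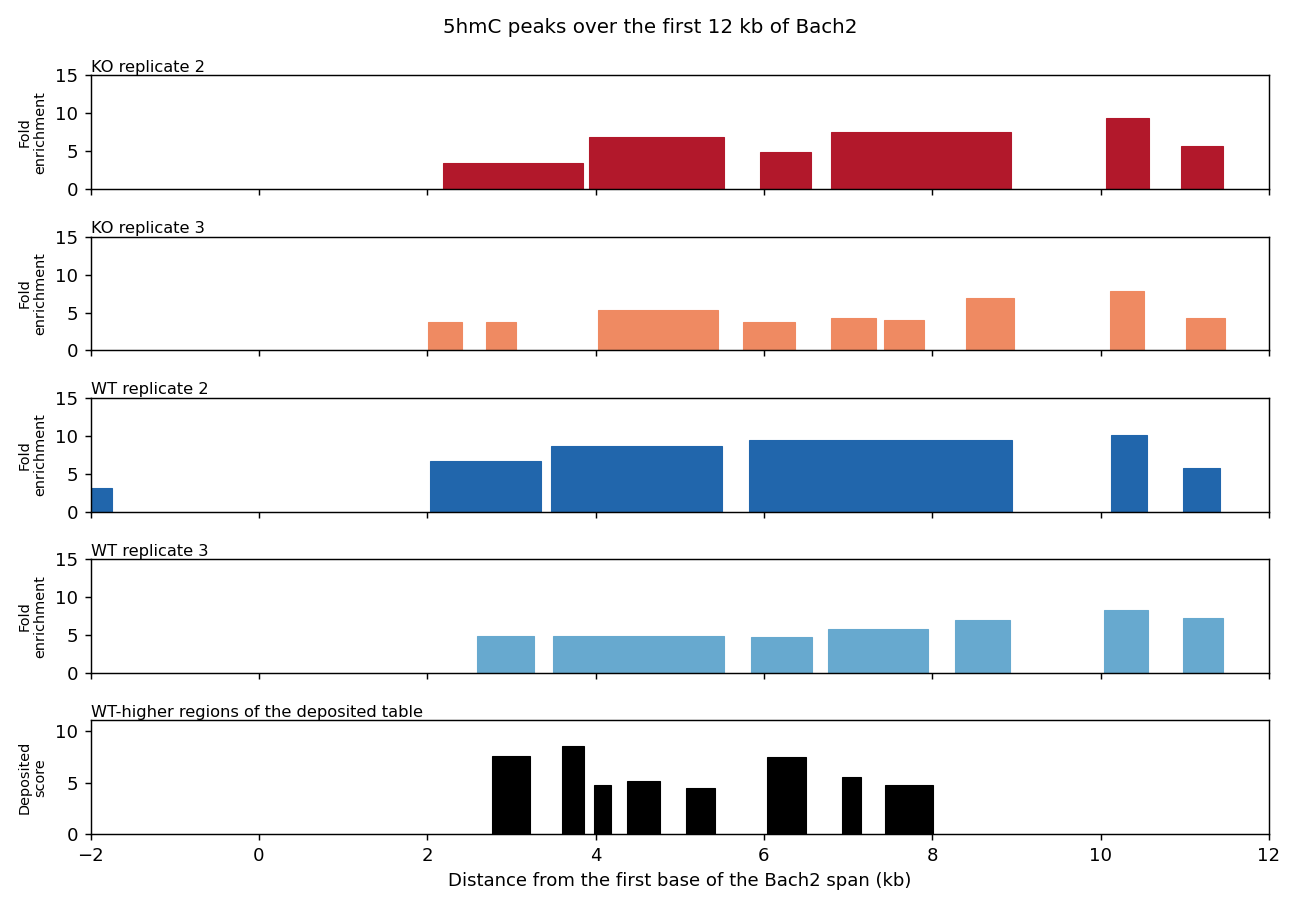
Peaks over the first 12 kb of Bach2 and the 2 kb before it, as boxes from peak start to end (x axis, kb from the first base of the span) with summit fold enrichment as height, and below them the deposited WT-higher regions with their score. The 8 WT-higher regions lay between 2 and 9 kb, under peaks that were narrower and more broken in KO replicate 3 than in the other libraries. Over all of Bach2 that library also had the narrowest peaks, with a median width of 392 bp, against 463 to 504.5 bp. The shortest Bach2 peak was 332 and 262 bp in KO, against 307 and 309 bp in WT. Whether peak-calling settings differed between libraries is not stated, and their part in these widths was not tested.

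At the WT-higher regions the peak lists showed less coverage in KO than in WT libraries, and KO replicate 3 had the least. A peak overlapped 25 and 21 of the 33 in KO replicates 2 and 3, against 31 and 27 in WT replicates 2 and 3. Of their bases, 66.5% and 47.0% were under a peak in KO, against 90.3% and 78.1% in WT. These shares are not scaled to library totals, of which KO replicate 3 had the smallest, nor to peak width, which was also smallest in that library. The same order held over the whole deposited table, with 80.1% and 68.1% in KO, against 89.8% and 87.2% in WT. Coverage of both KO libraries lay below both WT libraries at 8 of the 33 regions, against 24.3% of the table. All 4 libraries had a peak at 21 of the 33 (63.6%), against 76.1% of the table. At those 21, WT replicate 2 had the highest enrichment 19 times, and both KO values were below both WT values 6 times. These counts have no share over the deposited table beside them. Over all shared regions of the genome, both KO values lay below both WT values at 30.7%, and WT replicate 2 had the highest median enrichment. A summit of any library lay inside 21 of the 33, and the other 12 fell on the flanks of peaks or outside them.

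The 5 WT-higher regions with the highest scores showed this range. The top one, chr4:32386460-32386709 with a score of 9.49, had a peak in WT replicate 2 alone, which covered 73.2% of it at 4.97-fold. The next, chr4:32242012-32242280 with 8.49, was overlapped by a 3.43-fold peak in KO replicate 2 and by none in KO replicate 3, against 8.70-fold in WT replicate 2 and 4.93-fold in WT replicate 3. Here the KO libraries were the low ones. The region near the end of the gene, chr4:32585382-32585668 with 8.34, was 37.6% and 5.23% covered in KO, against 98.6% and 90.2% in WT, by peaks of 4.38-fold and 4.13-fold in KO, against 4.97-fold and 4.02-fold in WT. The reach of the peaks separated the genotypes there, and their summit enrichment overlapped. At chr4:32430773-32431045, with 8.32, coverage was 64.5% and 30.8% in KO, against 100% and 64.5% in WT, a tie between KO replicate 2 and WT replicate 3. At chr4:32241181-32241636, with 7.53, enrichment was 3.43-fold and 3.77-fold in KO, against 6.63-fold and 4.89-fold in WT, from 42 and 49 reads at the summit in KO, against 63 and 61 in WT.

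Other WT-higher regions had little peak support. A WT-higher region with a score of 6.73, chr4:32339409-32339677, met no peak in any library. At 5 of them WT replicate 2 alone had a peak, and at 1, chr4:32276394-32276634, neither KO library had a peak and both WT libraries did (3.11-fold and 2.995-fold). This last region was picked out after its values were seen, and these counts have no share over the deposited table beside them.

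**Figure D4:**
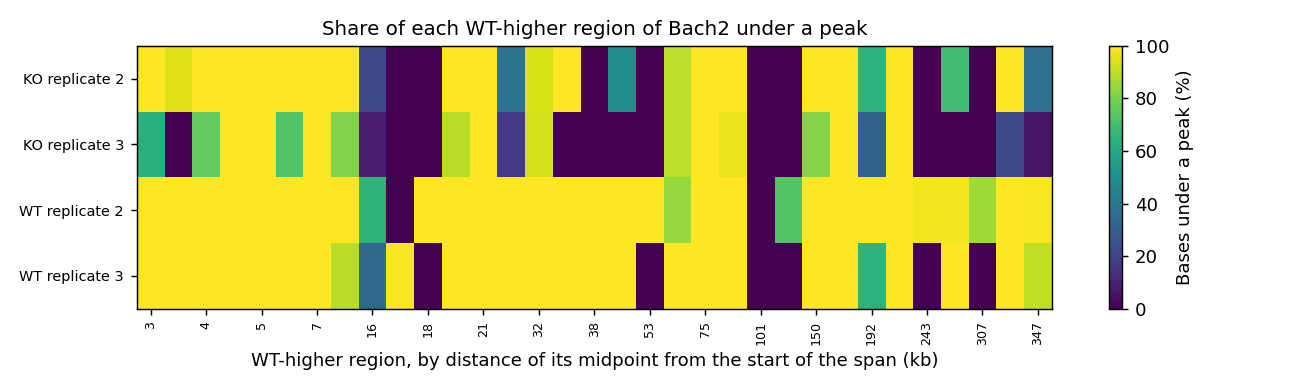
Percent of the bases of each of the 33 WT-higher regions in Bach2 (columns, in order along the gene, labelled at intervals with the distance of the midpoint from the start in kb) that lay under a peak in each library (rows). Dark cells have no peak. They were more frequent in the KO rows, and in KO replicate 3 above all, and 1 column is dark in all 4 rows.

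At the 49 regions that every library called, the ranks gave no general shift toward weaker peaks in KO. Both KO ranks lay below both WT ranks in 5 regions (10.2%), against 15.1% of all shared regions of the genome, and above them in 7 (14.3%), against 16.3%. The median over the 49 of the mean KO minus the mean WT rank was -0.80 percentile points, against -0.004 over all genic regions. It was 1.46 without KO replicate 2 and 0.51 without WT replicate 2, so its sign rested on either library. Of 842 genes with at least 20 shared regions, 301 had a lower median than Bach2. Median ranks of the Bach2 regions were 27.0 and 43.7 in KO, against 41.8 and 30.4 in WT, so the 2 libraries of a genotype differed from each other by more than the genotypes did. On the fold enrichment as deposited, both KO values were below both WT values in 15 of the 49 (30.6%), against 30.7% over the genome, and above in 1, against 3.09%. The count thus depended on whether the overall difference in enrichment between libraries was removed, and on both scales, over all 4 libraries and all peaks, Bach2 was at or below the background for lower KO signal. Over peaks of at least 5-fold it was 3 of 14 (21.4%), against 14.99%. With 3 libraries the count was 18 of 53 without KO replicate 2 (background 35.1%), 18 of 54 without KO replicate 3 (31.7%), 13 of 52 without WT replicate 2 (30.1%) and 23 of 52 without WT replicate 3 (31.3%). The last was 44.2% of the regions, so Bach2 lay above the background where WT replicate 2 stood for WT alone.

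Shared regions with a WT-higher region had ranks on both sides as well. Among the 19 that held one, the median rank difference was -3.41, and 1 (5.26%) had both KO ranks below both WT ranks, against a median of -4.16 and 27.7% of such regions over all genes. Among the 30 without one, the median was -0.46, with 4 below (13.3%) and 6 above (20%), against a median of 0.49, 14.4% below and 16.9% above over genic regions without one. Whether Bach2 differs from other genes in this was not tested.

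**Figure D5:**
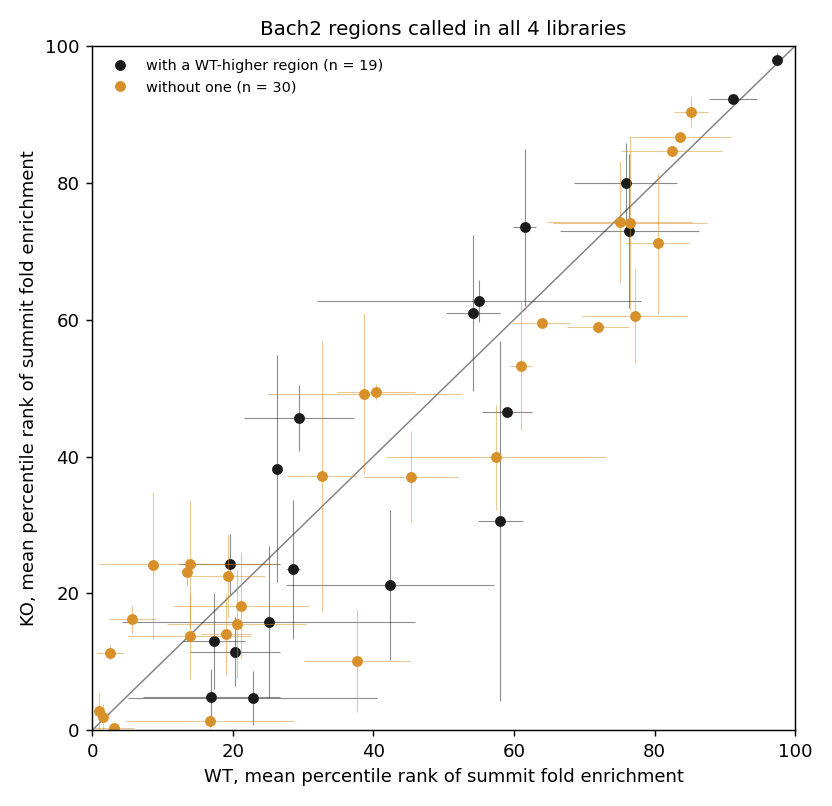
Mean percentile rank of summit fold enrichment in the 2 KO libraries (y axis) against the 2 WT libraries (x axis) for the 49 Bach2 regions called in all 4 libraries, with thin lines from the lower to the higher replicate. Points lay on both sides of the line of equal rank, among the 19 regions with a WT-higher region (black) as among the 30 without one (orange).

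The 5 regions with both KO ranks below both WT ranks all lay beyond the first 70 kb. The shared region with the lowest KO minus WT rank difference of the 49 was 1 of them, chr4:32512946-32513431, 275 kb into the span. It ranked 17.5 and 2.66 in KO, against 45.2 and 30.2 in WT, and held no WT-higher region. Its summit reads overlapped between genotypes, with 73 and 68 in KO, against 60 and 86 in WT. The local background under them was 16.2 and 22.6 reads in KO, against 9.20 and 17.0 in WT. The next lowest difference was at chr4:32258586-32259528, with 4.33 and 56.9 in KO, against 61.2 and 54.8 in WT. The difference there came from KO replicate 2 alone, with 68 summit reads over a background of 18.7, although 2 WT-higher regions lay there. At chr4:32326214-32326776 the ranks were 32.2 and 10.3 in KO, against 57.1 and 27.5 in WT, with 1 WT-higher region. The remaining pair among the 5 lowest, chr4:32269908-32270909 and chr4:32249368-32249891, had differences of -18.1 and -17.5, each set mainly by 1 WT library with a high rank.

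Some regions whose strongest summit ranked higher in KO also held a deposited WT-higher region. The rank is that of the summit, which can lie outside the WT-higher stretch. At chr4:32262189-32264252 the ranks were 40.8 and 50.5 in KO, against 21.6 and 37.2 in WT, a difference of 16.2, and a WT-higher region with a score of 4.01 lay within it. At chr4:32494616-32494985 they were 13.3 and 34.9 in KO, against 9.02 and 8.41 in WT. Both KO libraries had the higher ranks at these 2 regions. Peaks nevertheless covered 38.4% and 16.9% of the WT-higher stretch scored 4.01 in KO, against 100% and 100% in WT. The regions at chr4:32385635-32386642 and chr4:32430321-32431117, with differences of 12.02 and 11.99, held the WT-higher regions scored 9.49 and 8.32. No KO peak overlapped the stretch scored 9.49. At the strongest summit of the first region KO replicate 3 alone was high (21.7 and 54.8 in KO, 26.7 and 25.8 in WT), and at that of the second too (62.0 and 85.0 in KO, 63.1 and 59.9 in WT). The last of the 5 highest, chr4:32563907-32565058, lies within Bach2os and ranked 18.2 and 14.2 in KO against 9.02 and 2.38 in WT.

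Part by part, the signal of Bach2 was kept over most of the gene and was lower in both KO libraries in few stretches. Part 2, chr4:32273183-32307951, had 12.3% and 7.06% of its bases under a peak in KO, against 16.3% and 14.6% in WT. After scaling of covered bases to equal library totals, part 2 had 4005 and 2840 bases in KO, against 5811 and 4649 in WT, and its KO mean (3423) was the smallest share of its WT mean (5230) among the 10 parts. Scaled coverage of both KO libraries was also below both WT libraries in part 5 (3044 and 2936 in KO, 3517 and 3189 in WT) and part 8 (2830 and 2408 in KO, 3077 and 2861 in WT), both by a narrow margin. That made 3 of 10 parts on scaled coverage, against 12.6% of such parts in the genes of at least 100 kb. The set depends on the scaling. Unscaled, part 8 overlapped (3030 and 2082 in KO, 3001 and 3116 in WT) and part 10 had both KO libraries below both WT libraries (2584 and 2621 in KO, 3337 and 2792 in WT), while parts 2 and 5 kept the order. After scaling, in 0 of the 10 were both KO libraries above both WT libraries, against 16.8%. WT replicate 2 had the highest scaled coverage in every part except part 7.

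Part 4, chr4:32342722-32377491, had 13 regions with a peak and no WT-higher region. Its bases under a peak were 14.1% and 10.5% in KO, against 18.4% and 13.0% in WT, so KO replicate 2 exceeded WT replicate 3. The longest stretches without a WT-higher region were 58.6 kb from 32486184, with 12 merged peak regions inside it, 46.8 kb from 32339678, with 15, and 35.6 kb from 32431046, with 8. Peaks were thus present over much of the gene where the deposited table lists no difference. The longest stretches without a peak in any library were 14 kb from 32568326 and 13.2 kb from 32499740. The 2 kb before the span held part of 1 peak, of WT replicate 2, and the 2 kb after it held none.

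Peaks present in WT alone were more frequent in Bach2 than in genes as a whole. A peak in at least 1 KO library with none in WT was found in 8 of the 106 regions (7.55%), against 9.49% of genic regions, and the reverse in 25 (23.6%), against 12.2%. WT replicate 2 alone had 15 of the 28 regions seen in a single library, 53.6%, against 20.04% over genic regions. With 1 WT library left out, 2 KO libraries stand against 1 of WT, which favours peaks in KO alone in any gene, so the Bach2 shares are read beside the genic ones. Without WT replicate 2, 18.7% of 91 regions had a peak in KO alone (genic 14.4%) and 11% in WT alone (genic 8.92%). Without WT replicate 3, 15% of 100 regions had a peak in KO alone (genic 19.4%) and 19% in WT alone (genic 6.29%). The share in WT alone was thus closer to the genic share without WT replicate 2 than without WT replicate 3.

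Few regions were called in both libraries of 1 genotype and in neither of the other. A peak in both KO libraries where WT had none was seen at 1 region (0.943%), chr4:32474764-32475152, against 1.32% of all regions of the genome. At 4 regions (3.77%) both WT libraries had a peak where KO had none, against 1.92%. They were chr4:32275661-32276057, chr4:32276363-32276807, chr4:32412852-32413308 and chr4:32537299-32537816, and their enrichment was at most 4.04-fold. The first pair lie next to each other in part 2. These 5 were picked out after their values were seen.

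Summed over the gene, Bach2 coverage was slightly lower in KO, by less than the spread within WT. Scaled to equal library totals, it was 43783 and 39631 bases in KO, against 55859 and 41816 bases in WT. The log2 difference, KO minus WT, on log2(covered bases + 200) was -0.21 with a standard error of 0.14 in a limma fit over 13998 genes, given with no p. It was -0.01 without WT replicate 2 and -0.42 without WT replicate 3. Across those genes limma called 0 in either direction (0% higher in KO, 0% with less coverage) at a Benjamini-Hochberg threshold of 0.05, with 591 genes at an unadjusted p under 0.05.

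Bach1 was sparsely marked and showed no difference between the genotypes beyond their spread. It had 2 peaks in each library and 3 merged regions, of which 0 held a WT-higher or KO-higher region (0 of 3, which allows a share of up to 56.1%, 95% Wilson interval). The region called in all 4 libraries, chr16:87724208-87724651, lies 25 kb into the gene. Its enrichment was 4.30-fold and 3.98-fold in KO, from 53 and 51 reads, and 4.87-fold and 4.16-fold in WT, from 46 and 52 reads. Ranks were 18.2 and 24.7 in KO, against 24.7 and 14.8 in WT, a weak peak in each library with overlapping genotypes. The region chr16:87702487-87703081 had 2.74-fold and 3.20-fold enrichment in KO, against 3.31-fold in WT replicate 2, with no peak in WT replicate 3. That library alone had a peak at chr16:87720742-87721050, of 2.84-fold.

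Bach1 peaks covered 987 and 581 bases in KO, against 770 and 682 in WT, or 2.57% and 1.51% against 2.01% and 1.78% of the window. After scaling these were 922 and 672 bases in KO, against 789 and 626 in WT. The log2 difference was 0.13 with a standard error of 0.24, and limma gave an adjusted p of 0.9999 over all 13998 genes. The difference was -0.052 without KO replicate 2 and about 0 without WT replicate 3. With 1 to 3 regions in Bach1, a change of a single peak would alter any of these values. Per length, Bach2 was the more covered gene in every library, with at least 9.74% of its window under a peak against at most 2.57% for Bach1.

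The protein-coding genes next to Bach2, 14.8 kb (Gja10) to 3271 kb (Epha7) away and with spans of 1.52 to 154 kb, had few peak regions. Upstream, Map3k7, which encodes the kinase TAK1, had 1 WT-higher region, in 1 of its 6 peak regions (16.7%), and Epha7, an ephrin receptor gene, had 0 and 9. Downstream, Gja10, a connexin gene, had no peak region, and Casp8ap2 had 4 with 0 WT-higher regions. These numbers are small, and a difference from Bach2 was not tested. The genes next to Bach1 lay 104 kb (Map3k7cl) to 772 kb (Cldn17) away. Among them, Grik1, a glutamate receptor gene, had 3 WT-higher regions in 52 peak regions (5.77%). Map3k7cl had 0 in 8, Cct8, a chaperonin subunit gene, 0 in 1, and Cldn17, a claudin gene, no peak region.

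Within the pathway, peak regions and WT-higher regions were both most numerous in the B cell regulators, which held 205 of the 286 peak regions and 48 of the 57 WT-higher regions of 31 listed genes. Of the 31, of which 30 had a peak region, 13 had at least 1, against 28.3% of protein-coding genes with a peak region, and 46 of their 286 peak regions (16.1%) held one. The list was written with results of these data known. Among 11 genes that act on or under Bach2 in B cells, 7 had WT-higher regions, in 18.5% of the peak regions, against the genic 7.26%, and most of them lay in Foxo1 and Pax5. Foxo1, a transcription factor of the germinal center dark zone, had 19, in 13 of its 38 peak regions (34.2%). Pax5, the B lineage commitment factor, had 17, in 15 of 68 (22.1%). Irf4, which encodes a plasma cell regulator, had 2. Prdm1, the repression target of BACH2, had 1, which lay in no peak region, and Bcl6, the germinal center repressor, had 0 in 14 peak regions. None of the 31 had a KO-higher region.

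Of the CNC family, the relatives of the BACH proteins, Nfe2l3 had 2 WT-higher regions and Nfe2, Nfe2l1 and Nfe2l2 had 0. Of the small MAF partners, Mafg had 1 and Maff and Mafk had 0. Of 13 heme and antioxidant genes, 12 had a peak region. Of these 12, 4 had WT-higher regions, near the 28.3% of protein-coding genes with a peak region. They held 6 WT-higher regions in all. The shares of peak regions with one, 1 of 16 (6.25%) for the CNC family, 1 of 9 (11.1%) for the small MAF partners and 6 of 56 (10.7%) for the heme and antioxidant genes, were near the genic 7.26%. Hmox1, the classic target of BACH1, had 0 in 2 peak regions.

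The genes whose median ranks over the 4 libraries were most like those of Bach2 were Tg, Trdn, Rere, Fli1 and Dcdc5, at Euclidean distances of 5.23 to 7.44 percentile points among 841 genes with at least 20 shared regions. They had 2, 1, 8, 9 and 1 WT-higher regions over 29, 41, 70, 46 and 40 merged peak regions, against the 33 of Bach2 over 106. A like rank profile thus went with few as well as several such regions, in genes with fewer peak regions than Bach2. For Bach1 the nearest of 4980 genes were Fnbp1, Dennd5b, Ndst1, Fam3c and Zcchc7, at distances of 2.47 to 5.48, a likeness that rests on 1 shared region of Bach1. Those genes had 15, 2, 4, 4 and 9 WT-higher regions over 43, 22, 17, 13 and 40 merged peak regions, against 0 over 3 in Bach1.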

How the data were processed

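The processed files are the authors' peak lists, 1 for each of the 4 immunoprecipitated libraries, and a pair of deposited tables of differential regions. The submitters' processing notes name the aligner BWA (0.7.12-r1039), the peak caller MACS2 (2.1.0.20151222) and the build GRCm38.p3, without settings. Each deposited peak has a fold enrichment (a ratio over local background), −log10 p-value and −log10 q-value, and, per the file headers, the differential tables hold regions enriched in KO or WT cells with a score whose scale, caller and libraries are not stated. The read depth of the libraries is not stated in those sources. Summit reads were computed back from each peak's enrichment and p-value, within 0.001 for at least 99.9974% of peaks.

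Peaks were merged across lists where they touched, 1 bp was enough to overlap, and gene spans came from RefSeq GRCm38.p6, whose primary chromosomes match GRCm38.p3. The table gives no exons. Covered bases per gene (mean of at least 500) were scaled to equal totals and fitted as log2(bases + 200) with limma 3.58.1 (trend, robust) in R 4.3.3, with Benjamini-Hochberg adjustment over all genes. On this scale small genes' changes are understated. The fit and the rank counts were also run on simulated data with independent noise and set changes. Those runs do not show what 4 libraries of uneven enrichment can detect. Members, lists and comparisons were chosen with earlier results of these data known. Genes named were the members, 2 neighbours on each side, the 5 most alike, and list genes with at least 5 WT-higher regions or of the CNC and small MAF families, plus Prdm1, Bcl6, Irf4 and Hmox1, named after their values were seen. Some list genes are counted but not reported here by name. Regions named were the 5 with the highest enrichment, score, and rank difference in either direction.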

Additional observations from a re-analysis of the deposited data

How the results depend on the processing

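The share of Bach2 regions with a WT-higher region (23.6%) was 15.1% with deposited scores of at least 5 (genic 3.13%) and 42.9% over peaks of at least 5-fold (15 of 35, genic 11.1%). It was 21.7% where at least 50% of the WT-higher region had to overlap, 19.3% without part 1 of the span, and 22.8% to 25.2% with each library left out. The count of shared regions with both KO values below both WT values (5 of 49) was 15 on fold enrichment as deposited, 3 of 14 over peaks of at least 5-fold (21.4%, background 14.99%), and 13 to 23 with 1 library left out, where the background was 30.1% to 35.1%. The Bach2 rank difference (-0.80) was 0.10 on ranks of −log10 p, -1.83 over peaks of at least 5-fold, and -3.23 to 1.46 with each library left out, and that of Bach1 was -1.42 to 6.87. The Bach2 coverage difference was -0.42 to -0.01 with each library left out, and kept its sign in all 10 alternatives. That of Bach1 (0.13) was -0.012 with equal numbers of peaks per library, -0.052 without KO replicate 2 and -0.0006 without WT replicate 3, within a range of -0.052 to 0.31, and the cause was not tested. With a replicate block the differences were -0.21 (SE 0.07) for Bach2 and 0.13 (SE 0.26, limma adjusted p 0.9999) for Bach1. Deviations of same-numbered libraries had a correlation of 0.09 over genes, so the numbers were not taken to pair the libraries. Bach1 gave no value over peaks of at least 5-fold, since it had none. Fold enrichment as deposited and the settings without part 1 were chosen after seeing the data. With 2 libraries per genotype, differences within the replicate spread cannot be read as present or absent.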
